A study of Mus musculus with 15 samples.

Results

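Chromatin immunoprecipitation with sequencing (ChIP-seq) was used to map acetylation of histone H3 at lysine 27 (H3K27Ac) in pancreatic islets, and 2994 regions were analysed that carried an H3K27Ac peak in islets of mice on a high-fat diet (HFD) and of mice on the same diet with O304 (HFD-O304), but none in islets of mice on a regular diet (RD). Peaks of the 3 diets on chromosomes 1 to 19 were joined where they overlapped by at least 1 bp, which gave 25452 regions, and the 2994 regions made up 11.8% of them. For comparison, 12950 regions had a peak in all 3 diets, 3938 in HFD alone and 3009 in HFD-O304 alone. Because the presence and absence of H3K27Ac peaks chose the 2994 regions, their H3K27Ac values are a description and no test was made of them. H3K27Me3, position, sequence and neighbouring genes were not used in the choice.

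The islets came from CBA mice, were picked by hand and pooled, and about 600 islets were processed for ChIP-seq. The authors describe O304 as an activator of all forms of AMP-activated protein kinase (AMPK). H3K27Ac and trimethylation of the same residue (H3K27Me3) were each mapped in 2 samples per diet, but the authors merged both samples before peaks were called, so that each mark and diet is represented by 1 list of broad peaks. No spread between replicates can be measured and no difference between diets can be tested. Whole islets hold several cell types, so that fewer cells of a type and less of a mark per cell cannot be told apart.

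H3K27Ac is laid down by the acetyltransferases p300 and CBP and marks promoters and enhancers in use. H3K27Me3 is written on the same lysine by Polycomb repressive complex 2 and is found over silent developmental genes, so a single histone tail cannot carry both marks on that residue. In beta cells, enhancers with H3K27Ac surround genes of glucose sensing, hormone granules and identity, and factors such as NEUROD1, PDX1 and MAFA bind there.

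Sequences are shown for 8 of the regions, taken from the plus strand of the C57BL/6J reference genome (GRCm38), while the mice were CBA. Each is a window of up to 300 bp from the bases that the HFD and HFD-O304 peaks shared, as close to their centre as annotated UTRs allowed. Capitals mark matches to 14 motifs searched on both strands. In the windows below these were the GC box (GGGCGG, bound by SP and KLF factors), the E-box bound by NEUROD1 (CAGATGG) and a sterol response element (TCACCCCAC, bound by SREBP factors). A match is a description and not a shown binding site. The windows of Xylt2 and of Nmbr and Vta1, which share a promoter, are examples from the 10 strongest regions at promoters, with 2 and 3 GC boxes. Not all windows of that group held a GC box: those of Bod1 and Zfp39 held no match to any of the 14 motifs. Ccnd3 and Mcm2 stand for cell cycle genes and Rab3a for granule genes. The window upstream of Slc2a2 (the glucose transporter GLUT2) and the window at an exon of Abcc8 (the sulfonylurea receptor of the ATP-sensitive potassium channel) stand for regions away from the 5′ ends of genes at glucose sensing genes, and each held 1 E-box of the NEUROD1 type. Both were chosen for that match after it was seen: the windows of the other 4 regions in Abcc8 held no such E-box, and the gene nearest to the first is Tnik. The window between genes near Cntnap2 is an example from the strongest regions away from promoters and held no match. Of 5 words of 50 bases from its region, the median word occurred 8 times in the reference. What this repeated sequence is was not determined.
Xylt2 promoter, chr11:94677012-94677311: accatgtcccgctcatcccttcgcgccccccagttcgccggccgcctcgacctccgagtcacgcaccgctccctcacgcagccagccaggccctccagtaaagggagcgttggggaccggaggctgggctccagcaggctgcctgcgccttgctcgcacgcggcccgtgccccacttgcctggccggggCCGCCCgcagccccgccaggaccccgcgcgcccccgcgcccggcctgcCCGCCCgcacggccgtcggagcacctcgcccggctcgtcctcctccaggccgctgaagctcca
Nmbr and Vta1 promoter, chr10:14705097-14705396: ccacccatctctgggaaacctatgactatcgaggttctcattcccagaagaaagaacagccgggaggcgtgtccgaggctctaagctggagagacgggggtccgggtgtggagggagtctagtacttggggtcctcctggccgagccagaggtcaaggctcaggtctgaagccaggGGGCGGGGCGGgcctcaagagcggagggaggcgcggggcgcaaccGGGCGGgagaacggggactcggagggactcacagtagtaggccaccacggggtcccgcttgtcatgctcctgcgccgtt
Ccnd3 promoter, chr17:47504879-47505050: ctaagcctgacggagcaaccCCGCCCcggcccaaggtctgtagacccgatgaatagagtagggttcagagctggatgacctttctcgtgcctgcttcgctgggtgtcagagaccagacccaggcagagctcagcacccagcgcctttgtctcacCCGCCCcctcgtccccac
Mcm2 promoter, chr6:88898321-88898620: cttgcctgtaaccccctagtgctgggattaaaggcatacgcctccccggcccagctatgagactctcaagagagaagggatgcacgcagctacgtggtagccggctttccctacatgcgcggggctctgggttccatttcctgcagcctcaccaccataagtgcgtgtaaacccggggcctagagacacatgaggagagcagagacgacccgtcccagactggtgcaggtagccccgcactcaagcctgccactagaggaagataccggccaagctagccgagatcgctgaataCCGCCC
Rab3a promoter, chr8:70754908-70755207: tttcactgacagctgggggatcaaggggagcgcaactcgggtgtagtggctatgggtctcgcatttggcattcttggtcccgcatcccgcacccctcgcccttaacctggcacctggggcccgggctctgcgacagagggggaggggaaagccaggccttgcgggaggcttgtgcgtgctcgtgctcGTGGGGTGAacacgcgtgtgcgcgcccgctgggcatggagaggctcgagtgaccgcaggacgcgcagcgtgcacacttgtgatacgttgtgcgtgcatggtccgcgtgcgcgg
Upstream of Slc2a2, chr3:28681401-28681700: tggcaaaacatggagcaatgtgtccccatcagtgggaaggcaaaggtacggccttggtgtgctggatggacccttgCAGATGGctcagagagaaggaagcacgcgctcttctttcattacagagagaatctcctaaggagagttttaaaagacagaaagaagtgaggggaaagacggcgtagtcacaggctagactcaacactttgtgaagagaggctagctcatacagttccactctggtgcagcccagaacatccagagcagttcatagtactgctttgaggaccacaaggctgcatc
Abcc8 exon, chr7:46165938-46166237: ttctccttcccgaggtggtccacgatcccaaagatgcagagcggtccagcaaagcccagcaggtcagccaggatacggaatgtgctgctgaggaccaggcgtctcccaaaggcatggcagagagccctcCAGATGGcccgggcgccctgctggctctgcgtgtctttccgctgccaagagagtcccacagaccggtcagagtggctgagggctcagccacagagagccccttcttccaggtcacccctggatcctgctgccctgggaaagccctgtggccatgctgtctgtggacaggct
Near Cntnap2, chr6:44792946-44793221: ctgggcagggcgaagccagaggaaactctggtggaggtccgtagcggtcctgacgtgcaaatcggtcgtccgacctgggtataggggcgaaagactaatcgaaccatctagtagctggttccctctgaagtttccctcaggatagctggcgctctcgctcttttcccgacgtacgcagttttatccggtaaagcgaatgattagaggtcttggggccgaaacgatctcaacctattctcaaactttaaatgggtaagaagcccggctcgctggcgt

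The H3K27Ac lists rested on 83773042 fragments for RD, 95218072 for HFD and 84694188 for HFD-O304 after removal of duplicates, and held 15847, 21021 and 19787 peaks on chromosomes 1 to 19. The label of the tissue was checked with 12 islet genes, of which 11 lie on these chromosomes. Of the 11 genes, 6 had an H3K27Ac peak within 1000 bp of a start site for RD, 7 for HFD and 6 for HFD-O304. Pdx1, Nkx6-1, Ins2, Isl1 and Mafa had one in all 3 diets, whereas Gcg, Sst, Iapp and Hhex had none in any. Neurod1 had one in HFD and HFD-O304 and Ins1 in RD and HFD. The check of the tissue was thus only partial.

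The 2994 regions were weakly enriched and of similar height in both diets. Fold enrichment, the pileup of fragments over a uniform background as given by the authors, had a median of 2.41 in HFD (95% interval of the median 2.40 to 2.42) and 2.48 in HFD-O304 (2.47 to 2.49), with ranges of 2.17 to 6.31 and 2.25 to 6.39. The middle 50% of the regions lay between 2.305 and 2.58 in HFD. All intervals given here reflect counting error alone, as if regions were independent. The significance given by the peak caller was a median −log10 q of 3.42 in HFD and 3.34 in HFD-O304, and 233 regions (7.78%) reached 5 in both.

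These values lay close to the weakest peak that each list could hold. The lowest fold of any peak was 2.28 for RD, 2.17 for HFD and 2.25 for HFD-O304. A fold below the lowest RD value was found for 530 regions in HFD (17.7%, 95% Wilson interval 16.4 to 19.1) and for 102 in HFD-O304 (3.41%), and 2390 regions (79.8%) were at or above it in both diets. Just inside the rule, the region with the lowest −log10 q in HFD stood at 2.06 with a fold of 2.17. Just outside it, the region of all 3 diets with the lowest −log10 q in RD stood at 2.09 with a fold of 2.28. Of the regions present in all 3 diets, 11.8% had an RD −log10 q under 3. The lists give no value for RD below its limit, so the absence of a peak does not show the absence of the mark.

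**Figure D1:**
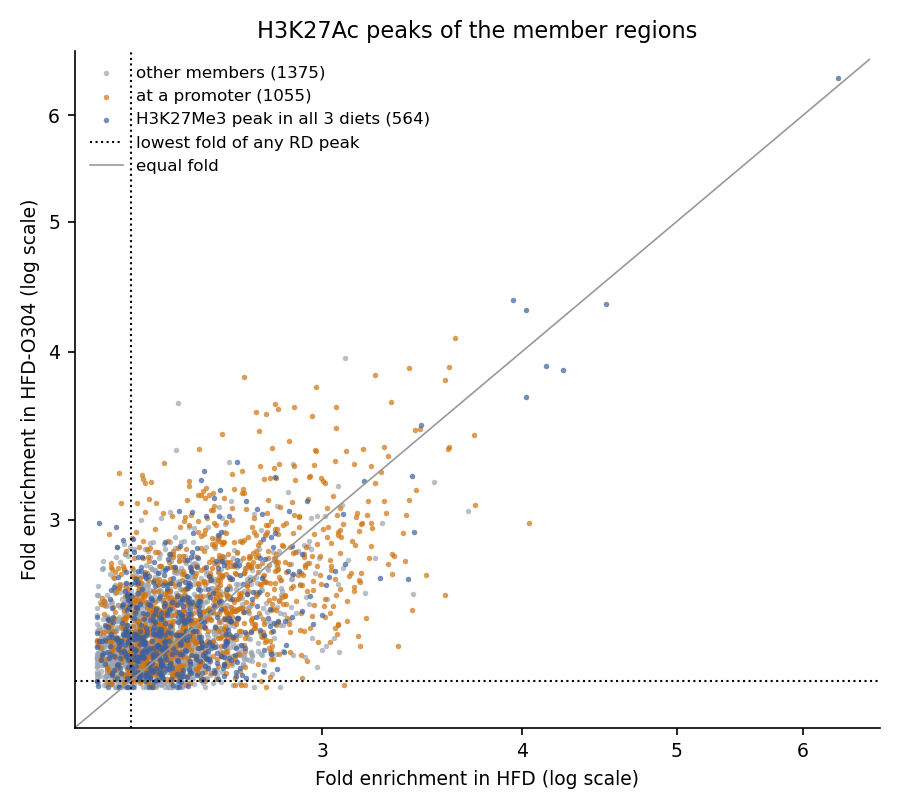
H3K27Ac fold enrichment of each of the 2994 regions in HFD (x axis) and HFD-O304 (y axis), both on log scales. Blue points are regions with an H3K27Me3 peak in all 3 diets (564), orange points other regions at promoters, grey points the rest, and dotted lines the lowest fold of any RD peak (2.28). Most points crowd near the dotted lines, and the point with the highest folds has H3K27Me3 in all 3 diets.

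Nearly all regions, 2963 of 2994, were built from 1 peak of each diet. The peaks overlapped closely: the median share of the shorter peak that the other covered was 97.7%, and 2773 regions (92.6%) shared at least 50%. The plot of folds shows that heights in both diets followed each other loosely (Pearson r of log2 fold 0.55 and Spearman's rho 0.40 across 2994 regions, against 0.93 and 0.85 across the 12950 regions of all 3 diets). Regions are not independent replicates, and both lists had a lower limit that narrowed the range for the 2994 regions. Fold was higher in HFD-O304 in 64.3% of the regions, by a median of 0.04 on the log2 scale. The same share was 52.9% over the regions of all 3 diets, with a median of 0.01. The lowest fold that a list could hold was itself 0.05 higher in HFD-O304 on the log2 scale, more than that median shift, so the direction is not read as a difference between diets. The peak was longer in HFD in 1568 regions and longer in HFD-O304 in 1421.

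The rule left out every region that touched an RD peak, so the distances to RD peaks are a description of the choice. The median distance to the nearest RD peak was 24550 bp, 29 regions (0.97%) lay within 1 kb and 846 (28.3%) within 10 kb. The closest, near Cxcl13, was 3 bp away. The share among all regions of a chromosome ran from 9.31% on chromosome 9 to 13.5% on chromosome 19.

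The regions lay between the regions of all 3 diets and those of a single diet in length, position and base composition. The median length was 855.5 bp (95% interval 829 to 887), against 434.5 bp for HFD alone, 433 bp for HFD-O304 alone and 1346 bp for all 3 diets. A joined region spans the peaks of every diet that had one, so this order of lengths is partly built in. Taken singly, the HFD peaks of the 2994 regions had a median length of 617.5 bp. For their HFD-O304 peaks it was 594.5 bp. A longer region also reaches a start site or an H3K27Me3 peak more easily. The part of length in the shares was not tested. Promoter regions were those reaching to 1000 bp or less from an annotated start site of a protein-coding gene, and they numbered 1157, or 38.6% (36.9 to 40.4). The background over all regions was 47.6%, and the share was 16.9% (15.8 to 18.1) for HFD alone, 19.6% (18.2 to 21.03) for HFD-O304 alone and 71.5% (70.7 to 72.3) for all 3 diets. Of the 1157 promoter regions, 860 (74.3%) were at the 5′ end of a gene and the others at start sites of shorter transcripts. A further 29.7% of the regions lay in introns, 3.47% in exons and 28.2% between genes.

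**Figure D2:**
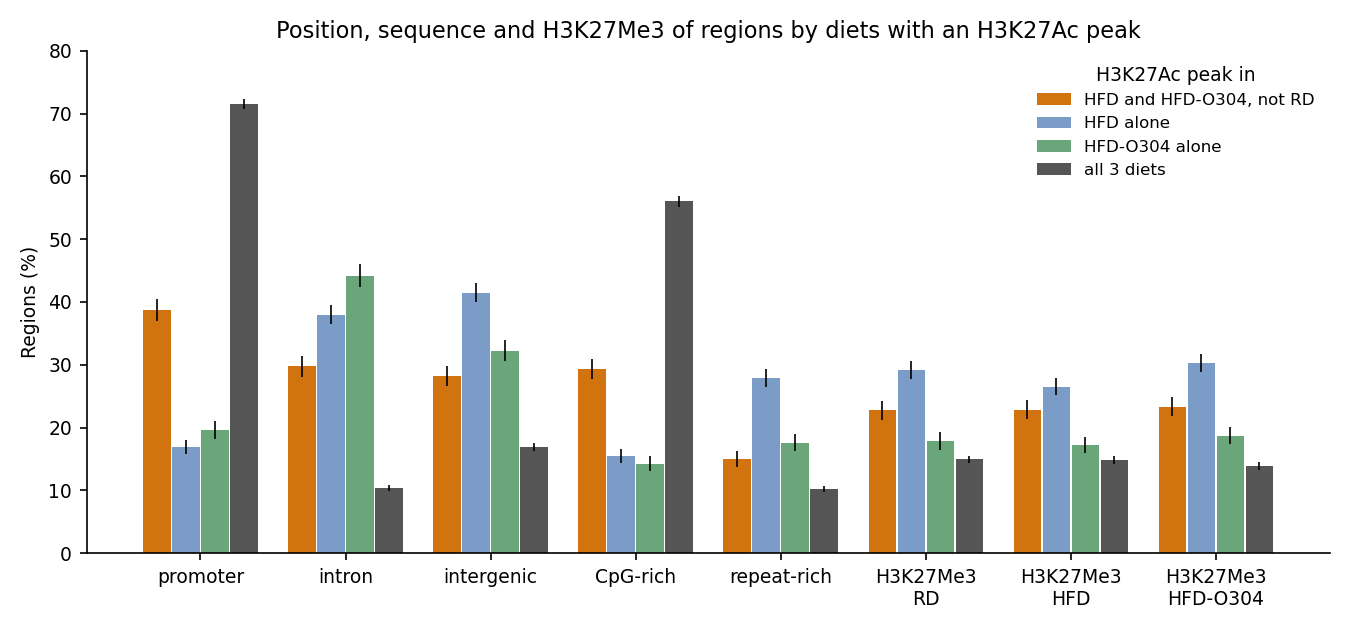
Percentage of regions (y axis) at promoters, in introns or between genes, CpG-rich, repeat-rich, or overlapping H3K27Me3 in each diet, for regions with an H3K27Ac peak in HFD and HFD-O304 but not RD (n = 2994), HFD alone (n = 3938), HFD-O304 alone (n = 3009) and all 3 diets (n = 12950). Error bars are 95% Wilson intervals over regions. The orange bar for promoters stands at 38.6%, between the single-diet bars and 71.5% for all 3 diets.

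As the bars of position and sequence show, base composition followed the same order. Stretches rich in CpG, here a GC content of at least 50% with at least 0.6 of the CpG dinucleotides expected from it, are typical of promoters of widely used genes. They made up 29.3% (27.7 to 30.9) of the regions, against 15.4% for HFD alone, 14.2% for HFD-O304 alone and 56.0% for all 3 diets. Regions at promoters had a median ratio of observed to expected CpG of 0.645 (0.623 to 0.667), and those elsewhere 0.247 (0.240 to 0.255). The promoter windows of Xylt2 and of Nmbr and Vta1 printed above are of the first kind, and the window upstream of Slc2a2 of the second.

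Stronger regions were more often at promoters. The share at promoters rose from 28.1% among regions with an HFD −log10 q under 3 to 37.4% between 3 and 5, 59.0% between 5 and 8 and 74.0% (64.6 to 81.6, n = 100) at 8 or more. Within the same bins of the HFD peak, regions of HFD alone were less often at promoters: 14.8%, 18.3%, 29.9% and 11.8% (4.67 to 26.6, n = 34). Regions of all 3 diets stood at 32.8%, 47.8%, 71.2% and 85.5%. The last bin has no upper limit and held 6303 regions of all 3 diets, so strength need not be equal within it. The bins rest on HFD values that took part in the choice of regions, and the shares were not tested. Repeat-rich regions, with at least 50% of bases masked as repeats, were not more frequent in the higher bins. They were 15.0% of the regions (13.8 to 16.3), against a background of 17.6% over all regions, and between 13.0% and 16.1% in every bin, whereas those of HFD alone rose from 23.0% to 58.8%. The bins do not describe the very top. Among the 10 strongest regions, those near Insig1, Oxsm, Rgmb, Moxd2 and Cts7 were 99.4% to 100% masked. Only those of Bod1, Xylt2 and Ndufc1 were at promoters.

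**Figure D3:**
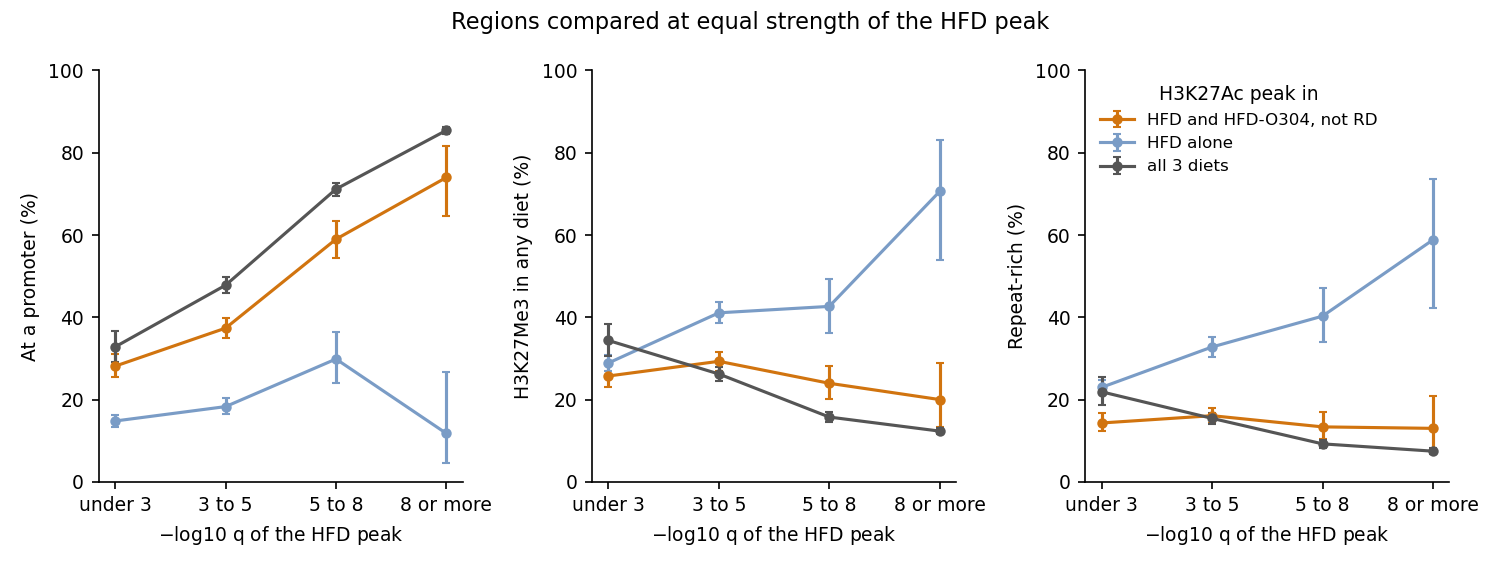
Share of regions at promoters (left), with H3K27Me3 in any diet (middle) and repeat-rich (right), in % with 95% Wilson intervals, by the −log10 q of the HFD peak (x axis), for regions of HFD and HFD-O304 without RD, of HFD alone and of all 3 diets. The promoter share of the 2994 regions climbs from 28.1% to 74.0% and stays above that of HFD alone in each bin.

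H3K27Me3 was a readout that the choice of regions did not use. RD peaks of this mark overlapped 681 of the regions (22.7%, 21.3 to 24.3), HFD peaks 684 (22.8%, 21.4 to 24.4) and HFD-O304 peaks 696 (23.2%, 21.8 to 24.8). The background over all regions was 20.0%, 19.3% and 19.7%, and the shares differed between diets by less than the width of their intervals. No H3K27Me3 peak in any diet was found at 2185 regions (73.0%), and 564 (18.8%) overlapped one in all 3 diets. Over all regions these shares were 76.5% and 15.96%. Of the 681 regions with H3K27Me3 in RD, 90 (13.2%, 10.9 to 15.97) had none in HFD, and of the 684 in HFD 93 (13.6%, 11.2 to 16.4) had none in RD. For regions with H3K27Ac in all 3 diets these shares were 12.7% and 12.3%, close to those of the 2994 regions, and for regions of HFD alone 20.4% and 12.6%. The H3K27Me3 lists rested on 74870300 fragments for RD, 54166902 for HFD and 57324419 for HFD-O304.

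The 564 regions with H3K27Me3 in all 3 diets were more often repeat-rich than the 2185 without it, as over all regions. They were repeat-rich in 60.6% against 2.20%, at promoters in 18.1% against 43.6%, and had a median length of 661 bp against 950 bp. Over all regions with and without H3K27Me3 in this sense the values were 64.7% against 5.44%, 14.3% against 56.3% and 633 bp against 1035 bp. Without repeat-rich regions the H3K27Me3 shares were 11.8% for RD and 12.65% in both other diets, against 9.81%, 9.16% and 9.43% over all regions left. Peaks of both antibodies were called without an input control, and the part of repeats in these overlaps was not tested.

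At promoters, where only 3 regions were repeat-rich, H3K27Me3 was more frequent than at promoters acetylated in all diets. RD peaks of H3K27Me3 overlapped 11.1% (9.38 to 13.0) of the 1157 promoter regions, HFD peaks 14.9% (12.9 to 17.0) and HFD-O304 peaks 13.8% (12.0 to 15.9). Among the 9258 promoter regions of all 3 diets these shares were 4.17%, 3.68% and 3.23%, among those of HFD alone 21.5%, 25.4% and 25.1%, among those of HFD-O304 alone 18.7%, 23.8% and 22.2%, and over all promoter regions 6.92%, 7.38% and 6.84%. The 1157 regions thus stood between regions of all 3 diets and those of a single high-fat group. Away from promoters the regions overlapped H3K27Me3 less often than those of all 3 diets. There the shares for RD, HFD and HFD-O304 peaks were 30.1%, 27.9% and 29.2%, against 41.9%, 42.85% and 40.6% for all 3 diets. They were 30.6%, 26.7% and 31.35% for HFD alone and 17.6%, 15.6% and 17.85% for HFD-O304 alone. Over all regions away from promoters they were 31.96%, 30.2% and 31.5%. H3K27Me3 in HFD and HFD-O304 but not in RD was found at 33 of the 1157 regions (2.85%, 2.04 to 3.98) and in RD alone at 8 (0.69%, 0.35 to 1.36). For promoter regions of all 3 diets these shares were 0.28% and 1.11%, for HFD alone 4.66% and 1.80%, for HFD-O304 alone 4.92% and 1.36%, and over all promoter regions 1.05% and 1.15%. The higher share for both high-fat groups was therefore not particular to the 1157 regions. These 33 promoter regions had peaks of both marks in both high-fat groups and of neither in RD.

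The GC box was less frequent in the 2994 regions than over all regions, and more frequent than in regions of a single high-fat group. It was found in 31.4% (29.8 to 33.1) of the central 300-bp windows, against 19.2% for HFD alone, 16.9% for HFD-O304 alone, 50.0% for all 3 diets and 36.1% over all regions. Among promoter regions it was found in 51.0% (48.1 to 53.9), against 61.4% for all 3 diets and 57.2% over all promoter regions. Motifs differ in length and base content, so the shares of different motifs cannot be ranked. Away from promoters the NEUROD1 E-box was in 8.71% (7.51 to 10.1) of the windows, the MAF site (TGCTGAC) in 4.90%, the AP-1 site (TGANTCA) in 7.40%, the forkhead site (TGTTTAC) in 3.92% and the homeodomain site (TAATTA) in 3.59%. Over all regions away from promoters these shares were 7.60%, 5.46%, 7.21%, 3.37% and 3.43%, and each lay within the interval of the first. The sterol response element was in 0.635% of all windows of the 2994 regions and in 0.503% over all regions. The other motifs searched were the E-box of MYC and ChREBP (CACGTG; 5.54% of the windows and 5.38% over all regions), NF-Y (CCAAT; 23.5% and 25.5%), ETS (CCGGAAGT; 0.935% and 1.87%), NRF1 (GCGCATGCG; 0.401% and 0.680%), the cAMP response element (TGACGTCA; 0.401% and 0.884%), RFX (GTTNCCATG; 1.30% and 1.25%) and HNF4 (CAAAGTCCA; 0.200% and 0.302%). The ETS and cAMP sites, both frequent at promoters in all 3 diets (4.04% and 1.65%), were in 1.81% (1.19 to 2.76) and 0.691% (0.351 to 1.36) of the 1157 promoter windows.

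The 10 regions with the highest lower −log10 q over both diets were of 2 kinds. The strongest lay between genes at chr5:28098361-28099434, 23.7 kb from a start site of Insig1, a brake on sterol synthesis, with folds of 6.31 in HFD and 6.39 in HFD-O304. It was 99.4% repeat-masked and overlapped H3K27Me3 in all 3 diets. The other 6 regions between genes were short, from 283 to 344 bp, and had H3K27Me3 in all 3 diets too. They lay nearest to Oxsm (folds 4.51 and 4.34), Rgmb (4.02 and 4.30), Cntnap2 (3.95 and 4.37), Rnf219 (4.14 and 3.91), Moxd2 (4.25 and 3.88) and Cts7 (4.02 and 3.70). Of 5 words of 50 bases spread over each of these 6 regions, the median word occurred between 6 and 4730 times in the reference. The regions near Cntnap2 and Rnf219 held no masked base, but the median word of the first, whose window is printed above, occurred 8 times and that of the second 6 times. For the region near Insig1 the median word occurred 1 time.

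The 10 strongest regions at promoters had another make-up. None overlapped H3K27Me3 in any diet, and the median word occurred 1 time for each of them, although 1 of the 5 words of Bod1 occurred 31452 times. Bod1, needed for the attachment of chromosomes to the spindle, had folds of 3.60 in HFD and 3.90 in HFD-O304. Xylt2, which starts glycosaminoglycan chains, had 3.63 and 4.09, and Ndufc1, a subunit of respiratory complex I, 3.58 and 3.81. These 3 were among the 10 strongest of all. The others were the promoters of Usp25, a deubiquitinase (3.40 and 3.89), Klhl10 and Nt5c3b (3.31 and 3.67), Dhx36, a helicase of G-quadruplexes (3.46 and 3.51), Zfp39 (3.43 and 3.50), Dnajc11, a mitochondrial co-chaperone (3.74 and 3.47), Inpp5f, a phosphoinositide phosphatase (3.60 and 3.39), and Nmbr and Vta1 (3.60 and 3.40). HFD-O304 had the higher fold at 7 of the 10.

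**Figure D4:**
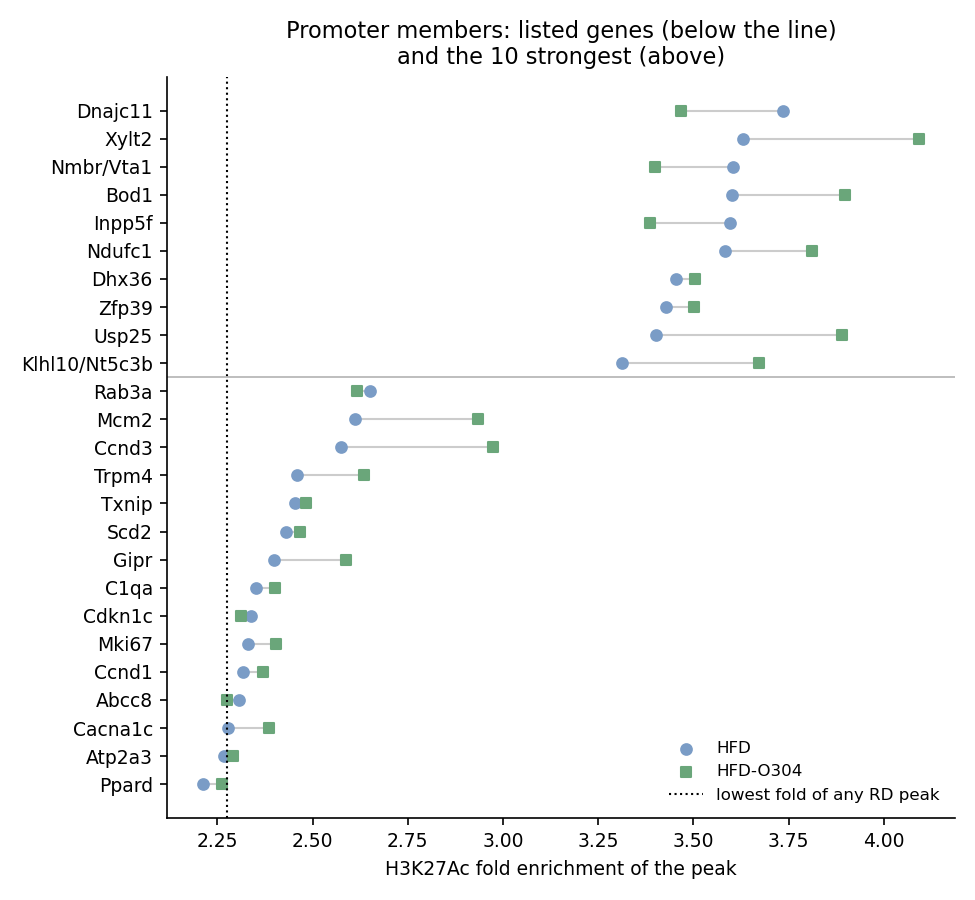
H3K27Ac fold enrichment (x axis) in HFD (circles) and HFD-O304 (squares) of the 10 strongest regions at promoters (above the line) and of the 15 regions at promoters of listed genes (below it). The dotted line is the lowest fold of any RD peak, 2.28. The listed genes lie between 2.21 and 2.98, close to that line, and the strongest between 3.31 and 4.09.

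Protein-coding genes on chromosomes 1 to 19 numbered 20807. A region was at the promoter of 1196 of them (5.75%), and in the gene or within 50 kb of a start site of 5393 (25.9%). An RD peak was present at another place of the promoter windows for 253 of the 1196 genes. The 14 lists of islet genes and of other cell types were read against these backgrounds.

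Of 17 genes of glucose sensing and excitability, 4 had a region at a promoter and 11 (64.7%, 41.3 to 82.7) in the gene or within 50 kb. The 11 genes had a total of 10 distinct nearest regions, since Abcc8 and Kcnj11, the neighbouring genes of both subunits of the ATP-sensitive potassium channel, shared one. Abcc8 held 5 regions, with HFD folds of 2.19 to 2.31 and HFD-O304 folds of 2.27 to 2.53. The one counted at its promoter (chr7:46104121-46106617) lay at an annotated start site inside the 3′ part of the gene and not at its 5′ end. Away from the 5′ end too, at internal start sites, lay the regions of Cacna1c, a pore subunit of L-type calcium channels (2.28 and 2.385), Atp2a3, the calcium pump SERCA3 (2.27 and 2.29), and Trpm4, a cation channel (2.46 and 2.64). All 4 genes had an RD peak elsewhere in their promoter windows. With the fold limit common to the lists Abcc8 and Atp2a3 lost their region at the promoter, and with lists of equal size only Trpm4 of the 4 kept it. Cacna1d, another L-type channel gene, had 5 regions in or near it, the nearest 1.33 kb from a start site (2.22 and 2.37). G6pc2, a glucose-6-phosphatase of beta cells, had 1 at 4.99 kb with folds of 2.725 and 2.84, which was at the promoter of another gene, Spc25.

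Slc2a2 and Neurod1, the latter encoding a factor needed for beta cell maturation, were not among the genes with a region at the promoter. The joined region over the Slc2a2 start site (chr3:28694930-28701412) held RD peaks 1538 bp and 1273 bp from annotated start sites, with folds of 2.64 and 2.72. Its HFD peak covered a start site without a break (fold 2.43), and the HFD-O304 peaks came within 811 bp and 388 bp of one (2.579 and 2.575). The region over Neurod1 (chr2:79453934-79457252) held an RD peak 1504 bp from the start site (2.70), an HFD peak at 773 bp (2.60) and an HFD-O304 peak over it (2.75). The region upstream of Slc2a2 whose window is printed above (chr3:28680707-28681911) had a peak in HFD and HFD-O304 alone, 15.99 kb before the gene, with a fold of 2.36 in both. The gene nearest to it was Tnik, at 13.9 kb. Across all genes, 984 had a peak within 1000 bp of a start site in HFD and HFD-O304 and none in RD, and 49 of these had no region of the 2994 there, as with Neurod1.

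Cell cycle genes had a region at the promoter in 5 of 20 cases and within 50 kb in 9 (45.0%, 25.8 to 65.8). Ccnd3, which encodes cyclin D3, had an HFD fold of 2.58 and an HFD-O304 fold of 2.98, with an RD peak 2113 bp away and another in the window of a start site further inside the gene. Mcm2, a subunit of the replicative helicase, had 2.61 and 2.93, with the nearest RD peak 2910 bp away. Ccnd1 (cyclin D1) had 2.32 and 2.37, and Mki67, the gene of the proliferation marker Ki-67, 2.33 and 2.40, with the nearest RD peak 503231 bp away. Cdkn1c, an inhibitor of the cycle (p57), had 2.34 and 2.31, and its region overlapped H3K27Me3 in all 3 diets. All 5 regions were at the 5′ end of their gene or within 1000 bp of it.

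Granule and exocytosis genes had a region at the promoter in 1 of 24 cases and near in 11 (45.8%, 27.9 to 64.9). The promoter was that of Rab3a, a GTPase of secretory vesicles, with folds of 2.65 and 2.62 and the nearest RD peak 20744 bp away. Of 13 receptor genes 1 had a region at the promoter, Gipr, the receptor of the incretin GIP, with folds of 2.40 and 2.59. Of 21 beta cell identity factors none had a region at the promoter, and 19 of them already had an RD peak there. A region lay within 50 kb of 6 (28.6%): Pdx1, Nkx2-2, Insm1, Mnx1, Myt1 and St18. At Mnx1 the fold was 2.27 in HFD and 2.82 in HFD-O304. None of 22 genes of the unfolded protein response had one at the promoter, and all 22 had an RD peak there.

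In the remaining metabolic lists, lipid and cholesterol synthesis had 1 of 20 promoters, Scd2, a stearoyl-CoA desaturase (2.43 and 2.47), and 9 genes near a region (45.0%, 25.8 to 65.8). AMPK and mitochondrial genes had 1 of 21, Ppard, a nuclear receptor for fatty acids (2.21 and 2.26 at an internal start site), and 5 near (23.8%). Of 12 genes of stress and dedifferentiation, Txnip, an inhibitor of thioredoxin, was the only one with a region at a promoter. Its HFD peak (2.45) and HFD-O304 peak (2.48) shared 117 bp, the second lay 1239 bp from the nearest start site, and a separate region upstream of it had peaks in all 3 diets. Hormone genes had none of 9 at promoters and 3 near, and alpha and delta cell factors none of 6 at either.

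Genes of other cell types were counted as a check on the make-up of the islets. Of 14 macrophage and immune genes, 1 had a region at the promoter, C1qa (2.35 and 2.40), and 6 had one near (42.9%, 21.4 to 67.4). The 6 genes had a total of 5 distinct nearest regions, since C1qa and C1qb shared one. Promoters of this list with an H3K27Ac peak numbered 0 for RD, 1 for HFD and 2 for HFD-O304. Exocrine genes had 0 of 19 at promoters and 2 near (10.5%), and endothelial and stromal genes 0 of 15 and 2 (13.3%). Exocrine promoters with a peak numbered 3, 2 and 3 and endothelial and stromal ones 2, 2 and 1, in the order RD, HFD, HFD-O304. The part of macrophages in the regions was not tested.

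**Figure D5:**
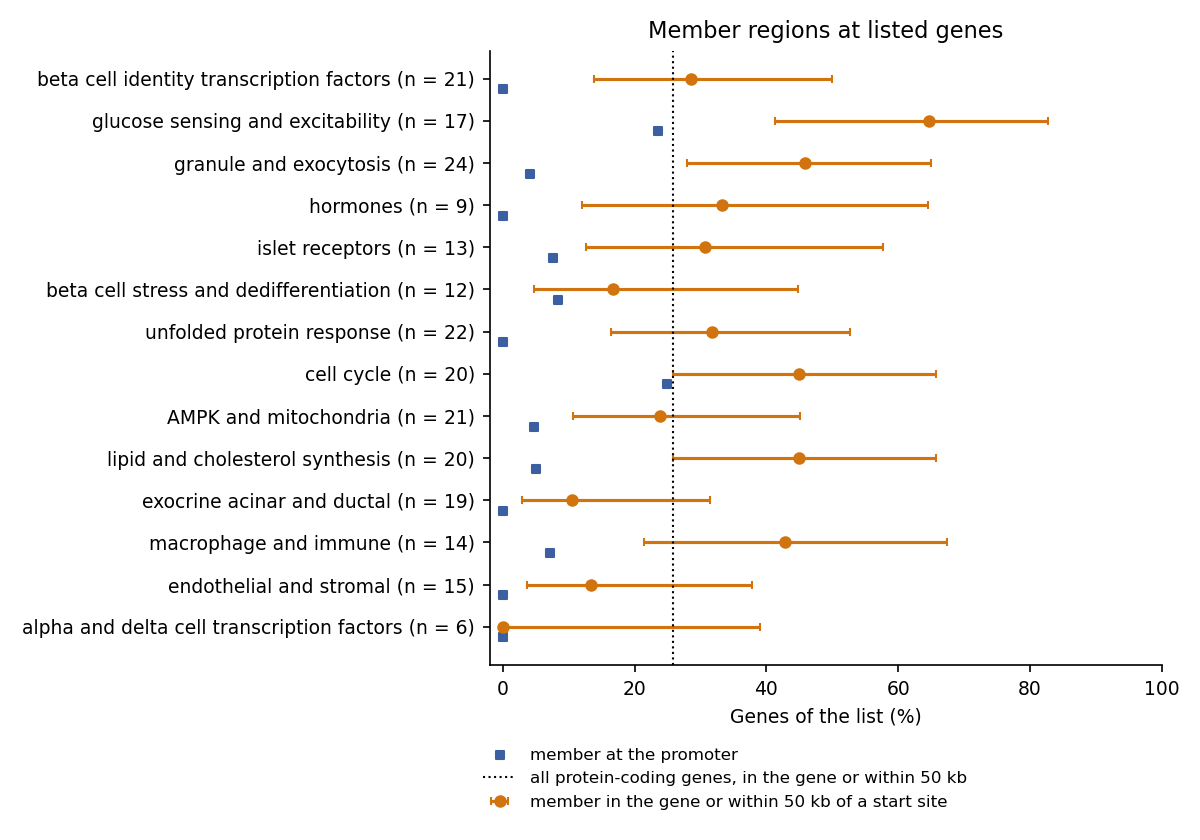
Percentage of the genes of each list (x axis) with a region at the promoter (blue squares) and with a region in the gene or within 50 kb of a start site (orange points, 95% Wilson intervals). The dotted line is the share of all protein-coding genes with a region in the gene or within 50 kb, 25.9%. Glucose sensing and excitability stands at 64.7% and granule and exocytosis at 45.8%, both with intervals above the line.

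The lists differed in gene length, and a longer gene offers more sequence to a count in the gene or within 50 kb. The median length was 48.5 kb for genes of glucose sensing and excitability (64.7% with a region near) and 46.2 kb for granule genes (45.8%). It was 11.8 kb for cell cycle genes (45.0%) and 8.83 kb for macrophage genes (42.9%). For AMPK and mitochondrial genes it was 63.4 kb (23.8%) and for endothelial and stromal genes 39.9 kb (13.3%). All protein-coding genes had a median of 17.6 kb. The part of gene length in the counts was not tested. The plot of lists shows wide intervals because lists are short, and the counts describe the lists without a test.

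A few long genes held several regions. Between 10 kb before the gene and its end, 2270 protein-coding genes held at least 1 region, 317 at least 2 and 72 at least 3. The highest count, 32, belonged to Gm20388, a gene model of 4435 kb that runs over many others. It includes Gse1, a chromatin-associated gene, which held 13 regions within 352.9 kb, all in introns, with HFD folds of 2.17 to 2.82 and HFD-O304 folds of 2.32 to 3.03. The nearest RD peak lay between 779 and 23789 bp from each of these. Msi2, an RNA-binding protein, held 8 regions and Zmiz1, a transcriptional co-activator, 7. With 5 regions each followed Abcc8, Kcnh1 (a potassium channel), Dnmt3a (a DNA methyltransferase), Arhgap26 and Fgfr2, the last through a gene model of 2961 kb that spans several neighbours. All 8 regions of Msi2 and 6 of the 7 of Zmiz1 were in introns, with HFD folds of 2.20 to 2.40 and 2.18 to 2.48. At Kcnh1 one of the 5 was at the 5′ end, 80 bp from the start site, with folds of 2.72 and 3.01.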

How the data were processed

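H3K27Ac and H3K27Me3 were mapped by ChIP-seq in 12 samples, 2 per mark and diet, beside 3 input samples. By the study's methods, reads were aligned to GRCm38 with bowtie2 and both samples of a group were merged. Per the file headers, the authors called broad peaks with MACS 2.1.2 at a q-value limit of 0.01, without a control file, against a uniform background. The deposited lists give for each peak the pileup (fragments per base, a signal not scaled for depth), its fold enrichment over that background and the −log10 of its q-value. Without a control, copy number and repeats are not corrected. The part of the input samples in these lists was not tested.

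Peaks on chromosomes 1 to 19 were joined in Python 3.11.15 (pandas 2.3.3, numpy 2.4.6, scipy 1.17.1) and placed on GENCODE M21 gene models and GRCm38 sequence. Shares carry 95% Wilson intervals and medians order-statistic intervals. With 1 list per mark and diet there was no test between diets and no replicate could be left out. The joining and counting were tested on simulated data. The members and lists were chosen with earlier results of these data known. Genes were named if a listed gene had a region at its promoter, if they lay nearest to the 10 strongest regions or the 10 strongest at promoters (by the lower −log10 q of both diets), or if they held the most regions. Neurod1 and Slc2a2 were added by name. Other genes, such as Insm1 or G6pc2, stand for counts of their list and were chosen after their values were seen.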

Additional observations from a re-analysis of the deposited data

How the results depend on the processing

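No paired analysis was possible because each list came from merged samples, so that no replicate could be left out either. Of 58 values under other settings, 29 stayed within the interval of the value reported, or within 1.5 times for the count of regions, and 29 did not. With −log10 q of at least 5 in both diets 233 regions were left, with a median fold of 2.92 in HFD and 2.97 in HFD-O304, 73.8% at promoters, 12.0% repeat-rich and H3K27Me3 at 15.0% (RD), 17.6% (HFD) and 15.0% (HFD-O304). With the limit of fold common to the lists the medians were 2.46 and 2.52 and the promoter share 42.4%. With lists of equal size 1231 regions were left, with medians of 2.59 and 2.64, 52.2% at promoters and H3K27Me3 at 21.1% in RD. Where peaks had to share 50% of the shorter one the HFD median was 2.42. Without repeat-rich regions the promoter share was 45.3%, and H3K27Me3 was at 11.8% (RD), 12.65% (HFD) and 12.65% (HFD-O304). The promoter share was 41.3% with a window of 2000 bp and 44.2% with start sites of all genes. With H3K27Me3 peaks of −log10 q of at least 5 the shares were 12.6%, 11.6% and 13.8%. Further settings were chosen after seeing the data. Without regions with H3K27Me3 in all 3 diets 43.4% were at promoters and 4.40% repeat-rich, and with 5′ ends of genes alone 28.7% were at promoters. Of the 15 listed genes with a region at the promoter, 0 kept it at −log10 q of at least 5, 7 with lists of equal size, 12 with the common fold limit, 14 when peaks up to 1000 bp apart were joined and 12 where peaks shared 50%. Among these 15, Ccnd3, Gipr, Mcm2, Rab3a, Scd2, Trpm4 and Txnip kept it with lists of equal size.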
